A study of Mus musculus with 12 samples.

Results

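Glycolysis and glycogen breakdown are carried out in muscle by isoforms that other tissues replace with partner enzymes. The histone marks of 10 genes that encode such isoforms were compared, 10 of 22208 protein-coding genes on chromosomes 1 to 19 and X. The rule names the genes and uses no measured value, but the members were chosen with earlier results of these data known. The 4 muscle isoforms are Eno3, Pgam2, Pfkm and Pygm. The 6 partners are Eno1, Pgam1, Pfkl, Pfkp, Pygb and Pygl, and they give 6 pairs because Pfkm and Pygm each have 2 partners. The question put to each pair was whether the marks of the muscle isoform and of its partner moved differently between myoblasts and myotubes.

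The data are 12 libraries of chromatin immunoprecipitation and sequencing (ChIP-seq) from C2C12, an established line of mouse muscle precursor cells of strain C3H. Myoblasts were growing in 10% serum and close to confluent, and myotubes were taken about 5 days after serum was withdrawn, at passages 15 to 18. The myotubes had been freed of cells that did not fuse by a mild trypsin treatment. Each of 6 histone marks was sequenced once in each cell type, so no value has a replicate, no input library was used here, and the intervals given are exact 95% intervals that cover counting error only, since reads copied by PCR are not independent molecules. A difference between 2 libraries therefore compares those libraries and was not tested between the conditions.

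Enolase, phosphoglycerate mutase and phosphofructokinase catalyse steps of glycolysis, and glycogen phosphorylase releases glucose units from glycogen. Muscle contraction is fuelled in part by these reactions, and differentiating muscle cells are known to switch on their own forms of the enzymes while the forms used by most cells are already present. H3K4me3 and H3K27ac mark active start sites, H3K4me2 and H3K4me1 extend into flanking and distal regulatory elements, H3K36me3 covers the bodies of transcribed genes and H3K27me3 is laid down by the Polycomb system at repressed genes.

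The start sites of the muscle isoforms and of the partners differed in base composition, and the stretches shown here carry that difference. In 1000 bp centred on the start site, the ratio of observed to expected CpG dinucleotides was 0.213 at Eno3, 0.327 at Pgam2, 0.282 at Pygm and 0.564 at Pfkm, against a median of 0.572 over all promoters. Among the partners it was 0.594 at Eno1, 0.984 at Pgam1, 0.710 at Pfkl, 0.557 at Pfkp, 0.698 at Pygb and 0.572 at Pygl. Every muscle isoform thus lay below its own partner except Pfkm, whose first start was above Pfkp. The third coding start of Pfkm, which lies inside the gene, had a ratio of 0.256. The following 150 bases end at the base before the start site and are given 5′ to 3′ on the strand of the gene, from the reference genome of build mm9 (NCBI build 37), with each CpG in capitals. They hold no annotated exon.
Pgam2, chr11:5703737-5703886, minus strand, upstream of the gene, 0 CpG: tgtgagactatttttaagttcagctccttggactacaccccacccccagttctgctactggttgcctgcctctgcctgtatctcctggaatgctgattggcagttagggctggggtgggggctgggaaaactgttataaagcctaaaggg
Pgam1, chr19:41986211-41986360, plus strand, upstream of the gene, 17 CpG: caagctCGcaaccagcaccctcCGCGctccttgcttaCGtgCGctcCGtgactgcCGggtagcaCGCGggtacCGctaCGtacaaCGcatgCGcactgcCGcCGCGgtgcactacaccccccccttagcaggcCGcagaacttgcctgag
Pygm, chr19:6384249-6384398, plus strand, upstream of the gene, 4 CpG: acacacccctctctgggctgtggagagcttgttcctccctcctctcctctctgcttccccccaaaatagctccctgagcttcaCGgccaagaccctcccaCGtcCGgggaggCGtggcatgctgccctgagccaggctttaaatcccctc
Pygb, chr2:150612321-150612470, plus strand, upstream of the gene, 10 CpG: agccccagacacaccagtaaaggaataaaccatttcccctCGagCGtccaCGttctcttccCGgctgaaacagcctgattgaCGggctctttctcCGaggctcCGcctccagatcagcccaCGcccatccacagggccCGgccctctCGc
Pfkm at the third start, chr15:97942341-97942490, plus strand, in an intron of the longer transcripts, 1 CpG: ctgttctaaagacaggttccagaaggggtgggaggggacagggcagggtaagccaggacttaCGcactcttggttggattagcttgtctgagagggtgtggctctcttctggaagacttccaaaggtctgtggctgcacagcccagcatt
Pfkl, chr10:77472553-77472702, minus strand, inside the annotated extent of the gene but in none of its exons, 10 CpG: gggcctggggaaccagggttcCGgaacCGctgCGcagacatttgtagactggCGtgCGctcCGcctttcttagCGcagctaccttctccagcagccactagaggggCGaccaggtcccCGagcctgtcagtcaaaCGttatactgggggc

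Of 5 motifs searched on both strands from 250 bases before to 50 bases after the start site, the GC box GGGCGG was found at 4 of 6 partners (Pgam1, Pfkl, Pfkp and Pygl) and 0 of 4 muscle isoforms, and in 45.8% of all promoters. TATAAA was found at Pgam2, beginning 16 bases before the start, and at Eno3, beginning at position -160, and in 12.9% of all promoters. The E-box CAGCTG was found at Pgam2 and at Pygm, at 0 of 6 partners, and in 15.3% of all promoters. The looser E-box CANNTG, which includes CAGCTG, was at all 4 muscle isoforms and at Eno1 and Pfkl among the partners, and in 68.2% of all promoters. CTA followed by any 4 bases and TAG, a string near the motif of MEF2 factors, was at 0 of 10 members and in 3.35% of all promoters. Other forms of that motif were not searched. The Pgam2 stretch above holds ctatttttaa, which differs from the string in its last base, so a MEF2 site is not excluded there. The 5′-most coding start of Eno3 had CAGCTG and no TATAAA, so these matches depend on the start chosen. The Pygl start was chosen by 2 H3K4me3 reads over a coding start 3805 bp away that held 0. These matches describe the letters in the window only.

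The libraries held 1858771 to 7033100 reads, and the shallowest was myoblast H3K27ac. The cell labels were checked on marker genes. All 7 myotube markers, among them Acta1, Ckm and Myh3, rose at least 2-fold in promoter H3K4me3, H3K4me2 and H3K27ac and in body H3K36me3. Of all promoters 3.45%, 2.33% and 5.19% did, and of all bodies 7.84%. Of 6 markers of cycling myoblasts, 5 fell to at most 0.5-fold in H3K4me3 and 6 in H3K27ac, where 7.75% and 41.5% of all promoters did. In H3K4me2 0 of 6 fell that far, where 36.3% of all promoters did. Of 18 markers of liver, neurons, blood, fat, bone and cartilage, 5 passed the filter in H3K4me3 (Pparg, Cebpa, Runx2, Sox9 and Syn1, the highest being Runx2 with 130 and 76 reads) and 0 were called higher, and the other markers held at most 6 reads in a library. Their part in the results was not tested. In bulk cells, fewer cells of a type and less of a mark per cell cannot be told apart. The peak lists deposited with the myoblast H3K27me3 and H3K27ac samples appeared exchanged, since the list filed with H3K27me3 held H3K27ac reads at 36.4 times the library mean and H3K27me3 reads at 0.804 times.

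A promoter is 1 kb either side of the start site of protein-coding transcripts with the most H3K4me3 reads in both cell types together, and a body runs from 1 kb past that site to the end of the gene. A level is the number of reads in the region over that expected from the mean of the library. A change is the ratio of myotube to myoblast reads scaled by total reads, and it was called when it reached 2-fold or 0.5-fold, after adding 1 read to each count, if the 2 libraries together held at least 20 reads. Promoters that had H3K4me3 peaks in myoblasts as well as in myotubes shifted as a whole under this scaling. Their median ratio was 0.866 for H3K4me3, 0.623 for H3K4me2, 0.969 for H3K4me1 and 0.559 for H3K27ac, and the bodies of the same genes had 0.989 for H3K36me3 and 1.43 for H3K27me3. Relative changes below have 1 read added and are divided by that median. The ratio of the change of a muscle isoform to the change of its partner does not depend on the scaling.

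At the main start sites, Pgam2 and Pygm had the highest ratios of the 10 members in H3K4me3, H3K4me2 and H3K27ac. Pgam2 (chromosome 11, 5701643 to 5703736, minus strand) encodes the muscle subunit of phosphoglycerate mutase. Its promoter held 1 H3K4me3 read in myoblasts and 76 in myotubes, a ratio of 63.9 (11.1 to 2558). The myoblast level was 0.461 (0.0117 to 2.57), an interval that includes the library mean, and the myotube level was 29.5. H3K27ac went from 8 to 126 reads, a ratio of 6.20 (3.05 to 14.7), and H3K4me2 from 19 to 102, a ratio of 4.85 (2.95 to 8.38). Relative to the shared shift these were changes of 9.93 and 7.46.

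The partner Pgam1 (chromosome 19, 41986361 to 41993154, plus strand), the form present in most tissues, had fewer H3K4me3 reads in myotubes. Its promoter held 92 H3K4me3 reads in myoblasts and 57 in myotubes, a ratio of 0.521 (0.368 to 0.733) that was just short of the call, and 39 and 56 H3K27ac reads, a ratio of 0.565 (0.369 to 0.873) close to the shared shift of 0.559. In myotubes the H3K4me3 level of Pgam2 was 1.33 times that of Pgam1 (0.933 to 1.91), where in myoblasts it had been 0.0109 times (0.000272 to 0.0621). The change of Pgam2 was 123 times that of Pgam1 in H3K4me3 (19.8 to 4959.6) and 11.0 times in H3K27ac (4.62 to 28.7).

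Only uniquely aligned reads are described for the myoblast libraries, and not all of Pgam1 can hold them. Of its promoter positions 87.4% have a 34-base sequence that occurs once in the genome, and of its body 72.6%. If myotube reads were also restricted to unique alignments, which is not stated, the limit cancels in its change, but not in its level. Per position that can hold such a read, the body H3K36me3 of Pgam2 was 0.565 times that of Pgam1 in myoblasts (0.335 to 0.908). In myotubes it was 2.15 times (1.16 to 3.88).

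Pygm (chromosome 19, 6384399 to 6398459, plus strand) encodes muscle glycogen phosphorylase, the enzyme missing in McArdle disease. Its promoter held 6 H3K4me3 reads in myoblasts and 66 in myotubes, a ratio of 9.25 (4.03 to 26.1) and levels of 2.77 and 25.6. H3K4me2 went from 18 to 118 reads, a ratio of 5.92 (3.59 to 10.3), and H3K27ac from 8 to 106, a ratio of 5.21 (2.55 to 12.4).

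Its partner Pygb (chromosome 2, 150612471 to 150657494, plus strand), the form named for brain, was called lower in H3K27ac under both scalings. It held 25 H3K27ac reads in myoblasts and 10 in myotubes, although the myotube library was the deeper one, a ratio of 0.157 (0.0674 to 0.339) and a relative change of 0.298. H3K4me2 fell from 233 to 63 reads, a ratio of 0.244 (0.182 to 0.324). H3K4me3 held 80 and 68 reads, a ratio of 0.715 with a lower bound of 0.510, and the shared shift of 0.866 lay inside its interval. Pygm had 0.320 times the H3K27ac of Pygb in myoblasts (0.125 to 0.732) and 10.6 times in myotubes (5.54 to 22.7), so the order of the pair turned. The change of Pygm was 33.1 times that of Pygb in H3K27ac (10.7 to 106), 24.2 times in H3K4me2 (13.4 to 45.2) and 12.9 times in H3K4me3 (5.14 to 38.4).

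Pygl (chromosome 12, 71291798 to 71332475, minus strand), the liver form, had few promoter reads of H3K4me3 or H3K27ac in either cell type. Its promoter H3K4me2 level was 2.68 in myoblasts (1.23 to 5.09) and 0.538 in myotubes, and its H3K4me1 level 2.17 (1.08 to 3.89) and 0.612. Its promoter held 2 H3K4me3 reads in myoblasts and 0 in myotubes, where 3 reads, the limit taken for a count of 0, would be a level of 1.16 and the exact upper bound is 1.43, and 1 and 4 H3K27ac reads. H3K27me3 was at 3.65 times the mean in myoblasts (2.23 to 5.63) and 2.81 times in myotubes (1.40 to 5.02), the highest promoter levels of this mark among the 10 genes, and no H3K27me3 peak lay there in either cell type with the myoblast list exchanged. No change in H3K4me3 is given for Pygl, and hence none for its pair with Pygm.

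**Figure D1:**
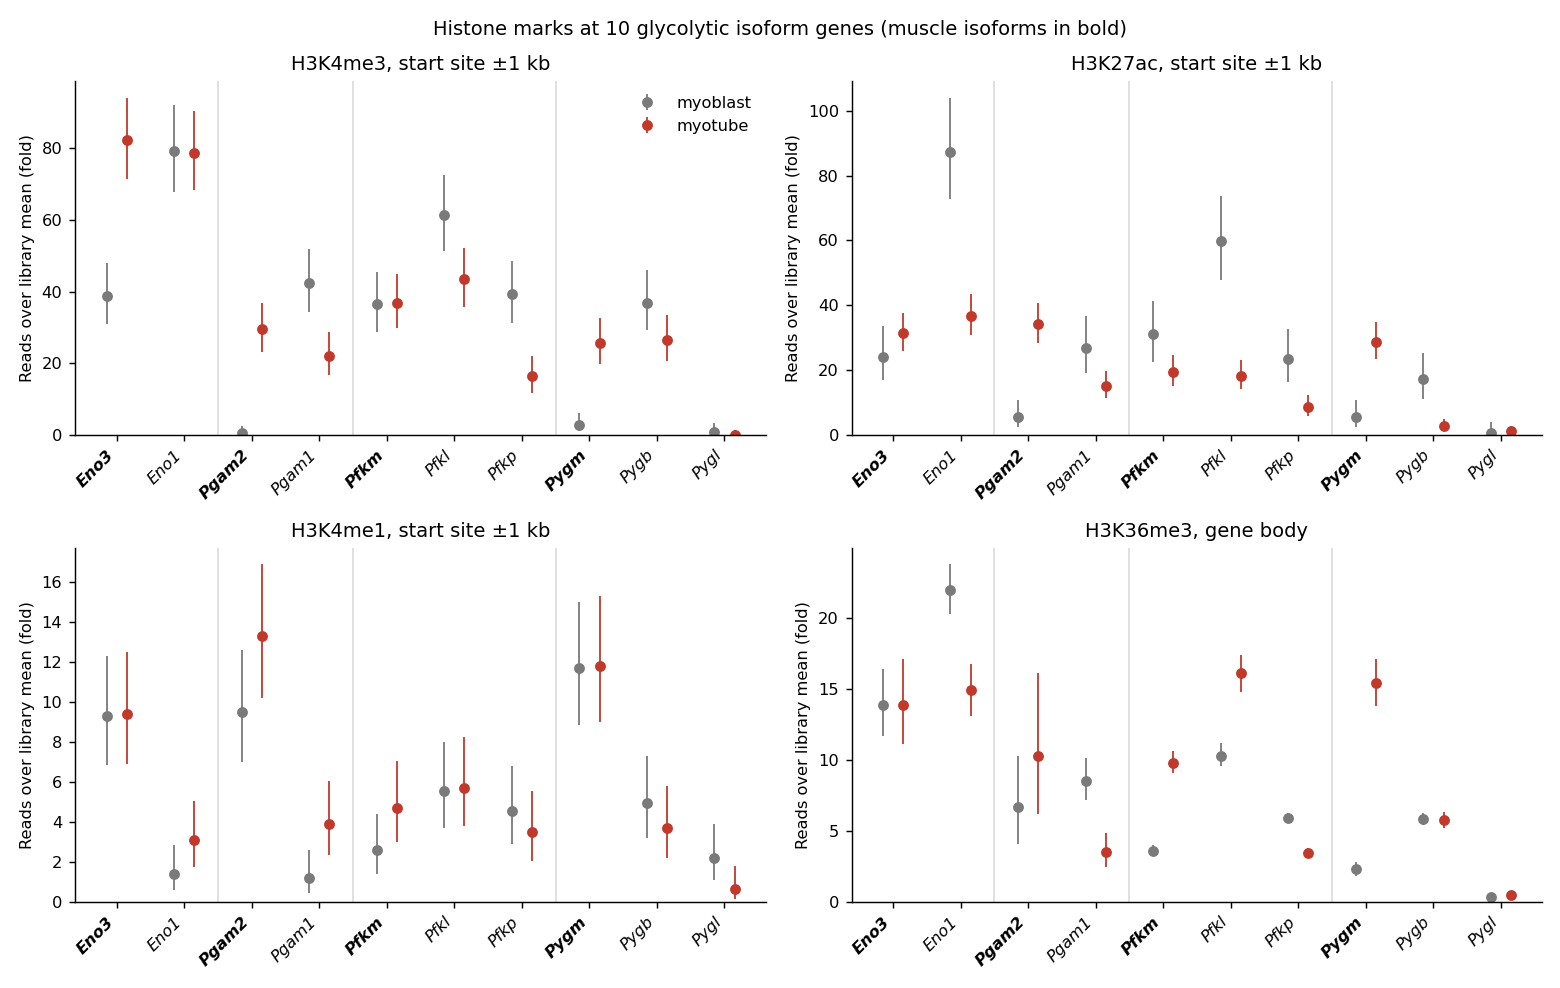
Level of H3K4me3, H3K27ac and H3K4me1 within 1 kb of the start site and of H3K36me3 over the gene body, as reads over the library mean, for the 10 genes in myoblasts (grey) and myotubes (red). Points are single libraries and bars are 95% counting intervals. Pgam2 and Pygm rise from near 0 to 29.5 and 25.6 in H3K4me3 while their H3K4me1 levels lie between 9.48 and 13.3 in both cell types.

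Both genes carried H3K4me1 before differentiation. Pgam2 held 48 H3K4me1 reads in myoblasts and 65 in myotubes, levels of 9.48 and 13.3, and Pygm held 59 and 58, levels of 11.7 and 11.8. In myoblasts these levels were above those of 94.3% and 96.8% of promoters. An H3K4me1 peak lay at both promoters in myoblasts, when neither had a peak of H3K4me3, H3K4me2 or, with the lists exchanged, H3K27ac. The Pgam2 peak did not reach a score of 100. In myotubes both had peaks of all 4 marks, of which H3K4me1 did not reach that score or an overlap of 500 bp at either gene, and H3K4me3 and H3K27ac lay mostly downstream of the Pgam2 start, with 63 of 76 and 110 of 126 reads there. The partners Pgam1 and Pygb had lower H3K4me1 levels in both cell types, 1.18 and 3.87 at Pgam1 and 4.94 and 3.67 at Pygb.

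Eno3 (chromosome 11, 70470704 to 70476015, plus strand) encodes the beta subunit of enolase, found in muscle, and was marked before differentiation. Its promoter held 84 H3K4me3 reads in myoblasts and 212 in myotubes, a ratio of 2.12 (1.64 to 2.77). Its level of 82.2 in myotubes was above that of 99.4% of promoters. H3K27ac held 35 and 116 reads, a ratio of 1.30 (0.887 to 1.96) that was not called under total-read scaling and was a relative change of 2.29. H3K4me2 held 199 and 187 reads, a ratio of 0.848 (0.691 to 1.04).

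Eno1 (chromosome 4, 149610830 to 149622988, plus strand), the alpha subunit of most tissues, held 172 H3K4me3 reads in myoblasts and 203 in myotubes, a ratio of 0.993 (0.806 to 1.22). Its H3K27ac went from 127 to 136 reads, a ratio of 0.421 (0.328 to 0.541) and a relative change of 0.753. Eno3 had 0.488 times the H3K4me3 of Eno1 in myoblasts (0.372 to 0.638) and 1.04 times in myotubes (0.857 to 1.27). The change of Eno3 was 2.14 times that of Eno1 in H3K4me3 (1.53 to 3.00) and 3.09 times in H3K27ac (1.94 to 5.00).

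The Eno3 values depend on the start site chosen. Its 5 annotated coding starts lie within 594 bp. At the first of them H3K4me3 held 87 and 179 reads, a ratio of 1.73 (1.33 to 2.26), and the 2-fold call was lost there and at the next 2 starts, where the ratios were 1.75 and 1.79. At the 5′-most starts of both genes the order of the pair turned, with Eno3 at 1.23 times the H3K4me3 of Eno1 in myoblasts and 2.18 times in myotubes. At the first Eno3 start H3K27ac held 47 and 89 reads, a ratio of 0.745 (0.517 to 1.08), so that the pair ratio in H3K27ac was 1.56 at the 5′-most starts of both genes, with a lower bound that rounds to 1 and an upper bound of 2.45. Pfn1, a gene on the other strand, starts 3152 bp upstream of the main Eno3 start, and 1 H3K4me3 peak of 9834 bp covered both in myoblasts. The part of Pfn1 in the Eno3 values was not tested.

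**Figure D2:**
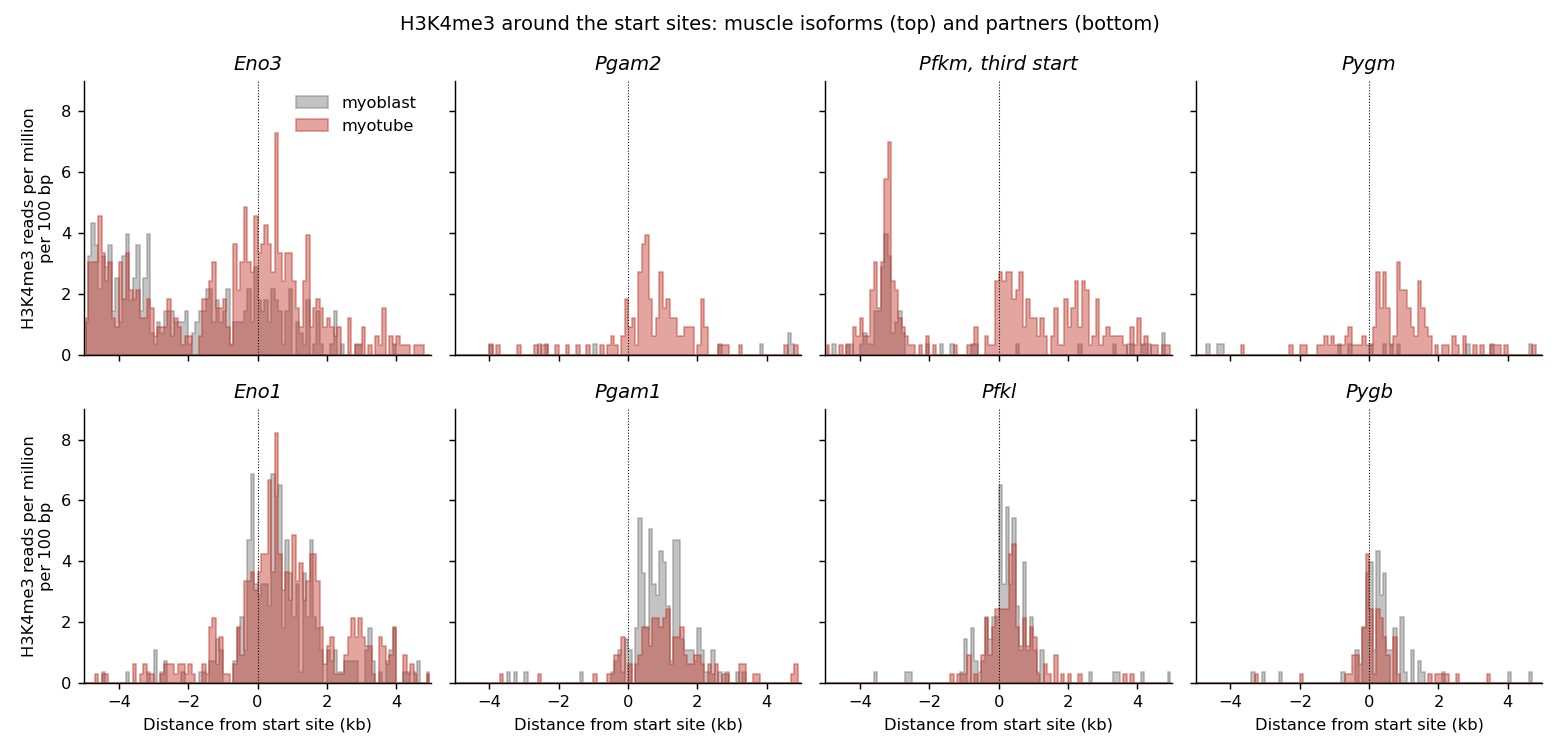
H3K4me3 reads in 100 bp bins, per 1000000 reads of the library, within 5 kb of the start site in myoblasts (grey) and myotubes (red), with the direction of transcription to the right. Pgam2, the third start of Pfkm and Pygm have almost no reads in myoblasts and a block downstream of the start in myotubes, while the partners in the lower row are marked in both. The block near -3 kb in the Pfkm panel is its second start.

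Pfkm (chromosome 15, 97923020 to 97962878, plus strand) encodes muscle phosphofructokinase, the enzyme that commits sugar to glycolysis, and was marked at its first start in both cell types. That promoter held 79 H3K4me3 reads in myoblasts and 95 in myotubes, a ratio of 1.01 (0.743 to 1.38), and 45 and 72 H3K27ac reads, a relative change of 1.12. Senp1, transcribed the other way, starts 816 bp downstream of this site within the same window, and reads of the 2 genes cannot be told apart there. The gene has 2 further coding starts, 15882 and 19471 bp into it, and these were looked at after the values of the first start had been seen.

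The third start had few H3K4me3 and H3K27ac reads in myoblasts. It held 3 H3K4me3 reads in myoblasts and 87 in myotubes, a ratio of 24.4 (8.08 to 121) and levels of 1.38 and 33.7. H3K27ac went from 4 to 48 reads, a ratio of 4.72 (1.73 to 18.0), and H3K4me2 from 27 to 107, a ratio of 3.58 (2.33 to 5.68). H3K4me1 was present before and was lower in myotubes, with 75 reads in myoblasts and 45 in myotubes. Its levels were 14.8 and 9.18, a ratio of 0.620 (0.418 to 0.908). Against the first start of the same gene the change of the third was 24.1 times as large in H3K4me3 (7.44 to 123).

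The second start, 15882 bp into the gene, had an H3K4me3 change between those of the other two. It held 54 H3K4me3 reads in myoblasts and 113 in myotubes, a ratio of 1.76 (1.26 to 2.48), while its H3K4me2 fell from 252 to 110 reads and its H3K27ac held 40 and 43 reads, a ratio of 0.423 (0.268 to 0.667). Acetylation was also higher in myotubes beyond the third start. The 1 kb window centred 22.5 kb from the first start (97945020 to 97946019) held 2 H3K27ac reads in myoblasts and 98 in myotubes, levels of 2.75 and 53.1. From 1 kb past the third start to the end of the gene, H3K27ac went from 33 to 387 reads, a ratio of 4.61 (3.23 to 6.80).

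H3K36me3 was higher in myotubes toward the 3′ end of the gene. Between 1 kb past the first start and the third start, over 18.5 kb, it held 59 reads in myoblasts and 51 in myotubes, levels of 1.16 and 1.64. From 1 kb past the third start to the end, over 19.4 kb, it held 307 and 578 reads, levels of 5.76 and 17.7 and a ratio of 3.07 (2.67 to 3.54). The difference did not begin at the third start, since in the 1 kb windows centred 20.5, 21.5 and 22.5 kb from the first start the levels were 4.73, 3.64 and 4.36 in myoblasts and 3.56, 4.15 and 1.78 in myotubes. At 24.5 kb they were 6.55 and 16.6. H3K27me3 lay mainly on the other side, at levels of 3.02 and 2.57 before the third start and 0.921 and 1.61 after it.

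**Figure D3:**
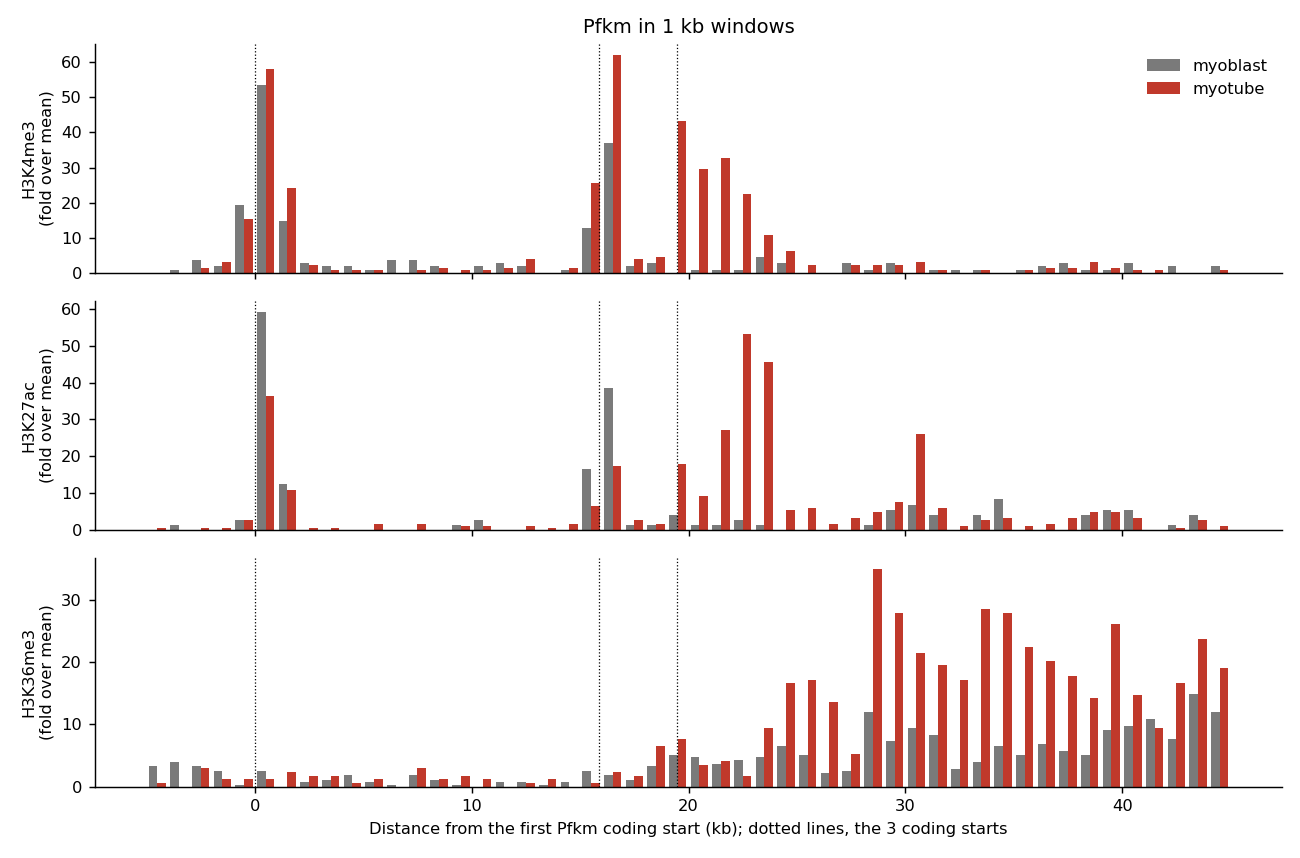
Levels of H3K4me3, H3K27ac and H3K36me3 in 1 kb windows along Pfkm in myoblasts (grey) and myotubes (red), as reads over the library mean. Dotted lines are the 3 coding starts; the H3K27ac bar of 53.1 lies 22.5 kb from the first start, and H3K36me3 in myotubes averages 17.7 past the third start and 1.64 before it.

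Both partners of Pfkm were called lower in H3K27ac under total-read scaling, and neither was relative to the shared shift. Pfkl (chromosome 10, 77449692 to 77472828, minus strand), the liver form, held 133 H3K4me3 reads in myoblasts and 112 in myotubes, a ratio of 0.708 (0.546 to 0.918), and 87 and 67 H3K27ac reads, a ratio of 0.303 (0.217 to 0.421) and a relative change of 0.544. Pfkp (chromosome 13, 6579014 to 6648023, minus strand), the platelet form, held 85 and 42 H3K4me3 reads, a ratio of 0.416 (0.280 to 0.608), and was the only member called lower in this mark. Its H3K27ac held 34 and 32 reads, a ratio of 0.370 (0.221 to 0.618) and a relative change of 0.663.

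With Pfkm counted at its first start, its change in H3K4me3 was 1.43 times that of Pfkl (0.949 to 2.15), an interval that includes 1, and 2.43 times that of Pfkp (1.47 to 4.03). Counted at the third start it was 34.4 times that of Pfkl (10.8 to 173) and 58.7 times that of Pfkp (17.4 to 301). Within Pfkp, at an internal coding start 12127 bp into the gene, H3K27ac went from 29 to 132 reads, a ratio of 1.79 (1.19 to 2.78), short of the call, while H3K4me3 there held 3 and 8 reads.

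H3K36me3 over the body separated the pairs most evenly. Pygm went from 81 reads in myoblasts to 339 in myotubes, a ratio of 6.82 (5.34 to 8.81), and the whole of Pfkm from 384 to 642, a ratio of 2.73 (2.40 to 3.10). Pgam1 went from 136 to 34 reads, a ratio of 0.408 (0.271 to 0.597), the only member called lower in this mark. The change of the muscle isoform exceeded that of the partner, with an interval above 1, in 6 of 6 pairs, from 1.48 for Eno3 over Eno1 (1.08 to 2.03) to 6.91 for Pygm over Pygb (5.23 to 9.17). In the pair of Pygm with Pygl, the Pygl body held 33 and 26 reads, levels of 0.335 and 0.430. The count of 6 is for the whole body. In the last of 3 equal parts Eno3 held 50 and 29 reads, Eno1 166 and 68 and Pygl 7 and 8, so counting error is larger there. How often other pairs of genes have an interval above 1 was not computed.

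Some pair ratios came from a lower partner. Eno3 held 142 and 87 body reads, a ratio of 0.999 (0.756 to 1.31), while Eno1 held 616 and 255, a ratio of 0.675 (0.581 to 0.782). Pgam2 held 20 and 19 reads in a body of 1.09 kb, a ratio of 1.55 (0.782 to 3.06), and its change was 3.80 times that of Pgam1 (1.70 to 8.39). Most of the Pgam2 reads, 12 of 20 and 13 of 19, lay in the 3′ part of the body, the last of 3 equal parts, and Dbnl ends 678 bp beyond it on the other strand, whose part in these reads was not tested. Pfkl held 622 and 592 reads, a ratio of 1.55 (1.38 to 1.74), so Pfkm rose by 1.76 times as much (1.48 to 2.09), and Pfkp fell from 1106 to 393 reads, a ratio of 0.579 (0.515 to 0.651).

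Per base of body, the level of the muscle isoform was below that of its partner in myoblasts and above it in myotubes in 3 pairs, although the myoblast interval of Pgam2 includes 1. Pgam2 had 0.779 times the H3K36me3 of Pgam1 in myoblasts (0.462 to 1.25) and 2.96 times in myotubes (1.60 to 5.34), Pfkm had 0.607 and 2.86 times that of Pfkp, and Pygm had 0.388 and 2.68 times that of Pygb. Over the last of 3 equal parts of the body, per position that can hold a unique read, these ratios were 0.564 (0.273 to 1.07) and 3.05 (1.24 to 7.78) for Pgam2, 0.845 and 4.06 for Pfkm over Pfkp, and 0.175 and 1.11 (0.809 to 1.52) for Pygm, so Pygm was not separated from Pygb in myotubes there. Pfkm stayed below Pfkl, at 0.347 times in myoblasts (0.305 to 0.395) and 0.610 times in myotubes (0.545 to 0.683). Eno3 rose from 0.631 times the level of Eno1 (0.522 to 0.759) to 0.934 times (0.724 to 1.20). Pygl was low throughout, at levels of 0.335 and 0.430.

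**Figure D4:**
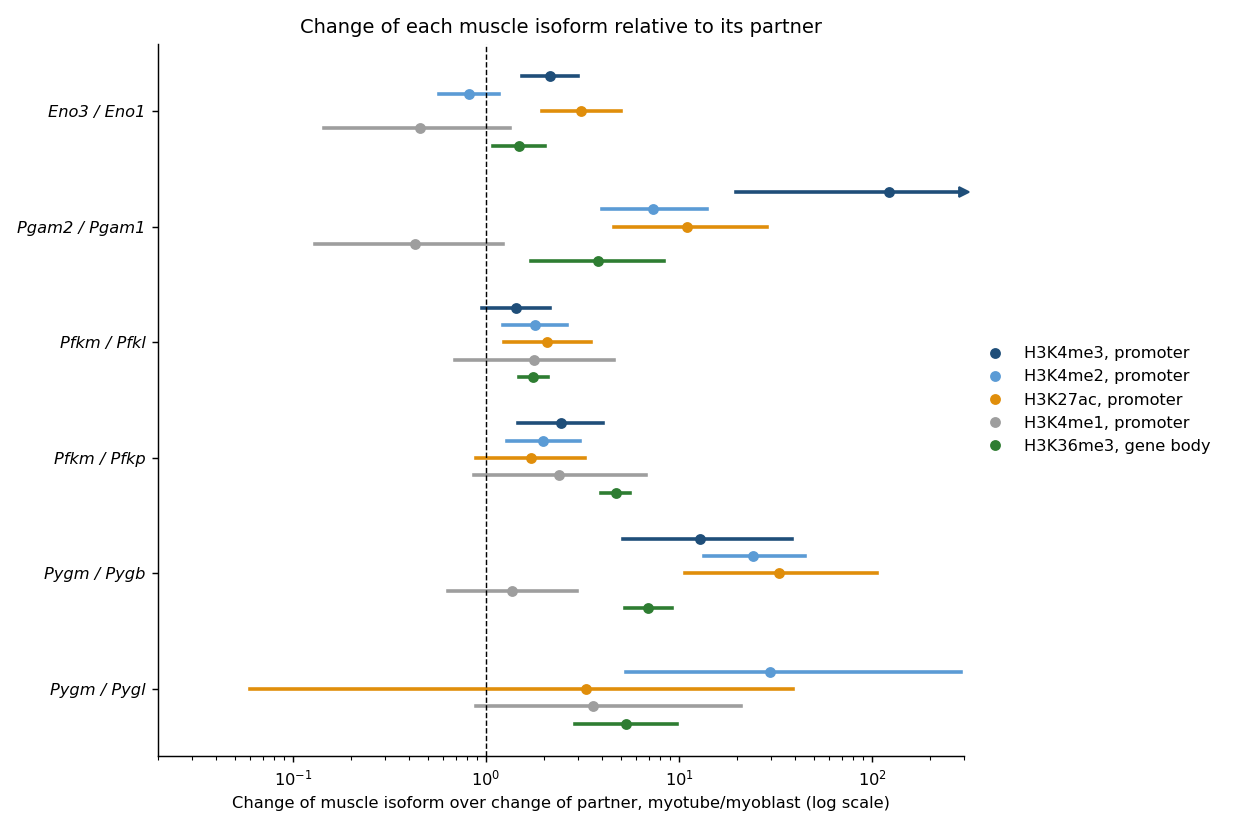
Change of each muscle isoform over the change of its partner between myoblasts and myotubes, on a log scale, with 95% counting intervals and an arrow where the interval runs off the axis. H3K4me3 is dark blue, H3K4me2 light blue and H3K27ac orange. H3K36me3 (green) lies above 1 in 6 of 6 pairs, from 1.48 to 6.91, and H3K4me1 (grey) includes 1 in 6 of 6; Pfkm is counted at its first start.

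Counted over the members, H3K4me3 was called higher at 3 of 9 members that passed the read filter (Eno3, Pgam2 and Pygm), where 3.45% of 11357 promoters were called higher (at 2, without Eno3, with 5′-most starts, where 3.27% were), and lower at 1 (Pfkp), where 7.75% were called lower. H3K4me2 was called higher at 2 of 9 (Pgam2 and Pygm), against 2.33% of promoters, and lower at 3 partners (Pfkl, Pfkp and Pygb), against 36.3%. Relative to the shared shift the H3K4me2 calls were 2 higher and 1 lower, where 7.27% and 10.6% of promoters were called. Scaled by windows outside peaks they were 2 higher and 5 lower, where 1.31% and 71.0% were. H3K27ac was called higher at 2 of 9 (Pgam2 and Pygm), against 5.19% of promoters, and lower at 4 partners (Eno1, Pfkl, Pfkp and Pygb), against 41.5%. Relative to the shared shift the H3K27ac calls were 3 higher (with Eno3) and 1 lower (Pygb), where 15.1% and 12.4% of promoters were called. Pgam2 and Pygm passed the filter in each of these marks only through their myotube reads. The start sites were also chosen by the H3K4me3 reads that are compared. With no read filter, members called higher were 3 of 10 in H3K4me3, 2 in H3K4me2 and 2 in H3K27ac, where 7.45%, 7.02% and 4.19% of promoters were.

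H3K4me1 was called higher at 2 of 9 members, the partners Eno1 and Pgam1, which held 7 and 15 reads and 6 and 19 reads, against 8.78% of promoters, and lower at 0, against 18.7%. The counts are small, and the interval of Eno1 runs from 0.849 to 6.42. Promoter H3K36me3 was measured well enough at 4 members, of which 0 were called higher, against 9.28% of promoters, and 1, Eno1, was called lower with 26 and 7 reads, against 12.7%. Relative to the shared shift the Eno1 call was lost and Pfkl, with 9 and 11 reads, was called higher, where 13.9% of promoters were. Promoter H3K27me3 passed at Pygl alone, and 0 members were called higher, against 2.37% of promoters, or lower, against 20.5%.

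Over gene bodies, H3K36me3 was called higher at 2 of 10 members (Pfkm and Pygm), against 7.84% of 15411 bodies, and lower at 1 (Pgam1), against 6.77%. The median ratio was 2.14 over the 4 muscle isoforms, 0.833 over the 6 partners and 1.02 over all bodies. H3K27me3 over the body was called higher at 3 of 9 members (Eno3, Eno1 and Pfkl), against 10.4% of bodies, and lower at 0, against 0.980%. Relative to the shared shift of 1.43 the calls were 2 higher (Eno3 and Eno1) and 0 lower, where 1.79% and 5.87% of bodies were called. The counts are small: Eno3 held 6 and 19 reads and Eno1 17 and 44. At most 2.62 times the library mean was reached by any member in myotubes, at Pygl, with Eno3 at 2.61. Each was above the level of 90.4% of bodies, of which the median was 1.07.

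Across the pairs, the interval of the pair ratio lay above 1 in 4 of 5 pairs with a value for H3K4me3, in 5 of 6 for H3K4me2 and in 4 of 6 for H3K27ac. The H3K4me2 count includes Pygm over Pygl, where Pygl held 9 and 2 reads and did not pass the read filter. The exceptions were Pfkm over Pfkl for H3K4me3, Eno3 over Eno1 for H3K4me2, and Pfkm over Pfkp and Pygm over Pygl for H3K27ac, and their intervals include 1. The window decides some of these, since Pfkm over Pfkl in H3K4me3 lay above 1 within 500 bp (1.05 to 3.17) and within 2 kb (1.02 to 2.14) of the start, as did Pfkm over Pfkp in H3K27ac within 2 kb (1.03 to 3.13), and Eno3 over Eno1 in H3K4me2 lay below 1 within 2 kb (0.601 to 0.956). For H3K4me1 the interval included 1 in 6 of 6 pairs. The pairs that share Pfkm or Pygm are not independent of each other. The share of other gene pairs with an interval above 1 was not computed, and the intervals cover counting error only.

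By peaks, 7 of 10 promoters carried H3K4me3 in myoblasts and 9 in myotubes, where 48.7% and 48.9% of all promoters did. The 2 gained were Pgam2 and Pygm, and Pygl had none. H3K4me2 peaks were at the same 7 and 9 promoters, and at 56.8% and 53.0% of all. H3K27ac peaks were at 8 promoters in myotubes, all but Pygb and Pygl, and at 42.3% of all promoters. In myoblasts they were at 7 with the lists exchanged, and at 46.1% of all, and at 0 with the list as filed, against 5.02%.

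The promoters most like those of the muscle isoforms were sought over all 12 libraries, by Euclidean distance between log2 levels after 1 read was added. Card14, Tnni2 and Actc1 were nearest to Pgam2, at distances of 1.90, 2.10 and 2.16, where the median gene was at 8.40. Tnni2 and Actc1 encode a troponin and an actin of striated muscle. Neurl1a, Tnnc2 and Pgam2 itself were nearest to Pygm, at 2.05, 2.17 and 2.23. Eno3 lay nearest to Txn2, Bad and Aarsd1, and the first start of Pfkm to Rad9b, Vps29 and Smurf2.

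The other genes of the pathway had a share of H3K4me3 calls near or under that of all promoters. Of 45 genes of glucose uptake, glycolysis, lactate transport and glycogen metabolism, 32 passed the filter in H3K4me3, 1 was called higher and 1 lower, beside 3.45% and 7.75% of all promoters. Ratios of these genes and their medians have 1 read added, and intervals do not. Ppp1r3a, a subunit that targets a phosphatase to muscle glycogen, held 3 and 23 H3K4me3 reads, a ratio of 5.05, and Phka1, the muscle form of a phosphorylase kinase subunit, held 51 and 26, a ratio of 0.437. In H3K27ac 2 of 29 were called higher and 6 lower, beside 5.19% and 41.5% of all promoters. Slc2a4, the insulin-responsive glucose transporter, held 19 and 113 reads, a ratio of 2.24 (1.43 to 4.03), and Tpi1, triosephosphate isomerase, 34 and 187, a ratio of 2.11 with an upper bound of 3.22. Pfkfb3, the next in order, had a ratio of 1.47 (0.975 to 2.43).

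Among the genes that passed the filter, the lowest H3K27ac ratios of the list were those of Hk1, the hexokinase of most cells, at 0.384 (0.307 to 0.480), Pkm2 (pyruvate kinase) at 0.406 (0.324 to 0.510) and Pfkfb1 at 0.427 (0.261 to 0.703). Against a median of 0.559 for promoters marked in both cell types these are moderate. In H3K36me3 over the body, 3 of 42 were called higher (Slc2a4, Gapdhs and Pfkfb3) and 0 lower, beside 7.84% and 6.77% of all bodies. The median ratio over the 45 genes was 0.933 in H3K4me3 and 0.708 in H3K27ac, where all promoters that passed the filter had 0.866 and 0.570.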

How the data were processed

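The authors aligned ChIP-seq reads of histone marks to mouse build mm9 with Mosaik, kept unique alignments and called peaks with MACS; the study's text gives these steps for the myoblast libraries, and for the myotube libraries only the build is given in the sources used here. The reads were deposited as 1 line per read of 34 bp, each a count of 1, and the peaks were deposited with a MACS score, of at least 50, that is relative to their own list. What was merged into a file is not given in the sources used here. Between 0.417% and 3.14% of reads in a library were further copies at a position and strand.

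Reads on chromosomes 1 to 19 and X were extended to 150 bp and their midpoints counted, with Python 3.11.15, numpy 2.4.6, pandas 2.3.3, scipy 1.17.1 and numba. Genes came from GENCODE M1 on the same build, and start sites were those of protein-coding transcripts. Bodies shorter than 500 bp were left out. With 1 library per mark and cell type there is no test and no p-value. Intervals are exact Poisson for a level, exact conditional binomial for a ratio of 2 libraries and exact conditional for a ratio of ratios, all at 95%, and 0 reads stand for fewer than 3. The mean of a myoblast library was 0.727 to 2.75 reads per kb and that of a myotube library 1.29 to 2.45. The rule for named genes took the 10 members, the 3 genes nearest to each muscle isoform and, of the pathway list, the 3 highest and 3 lowest H3K27ac ratios; the other pathway genes named are those called, and their values, like those of the internal starts, were known when they were picked. The members and the gene lists were chosen with earlier results of these data known. Alternatives changed the window, read extension, duplicates, start site, body, scaling, added reads, read filter, fold and peak rules. The steps were tested on simulated data.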

Additional observations from a re-analysis of the deposited data

How the results depend on the processing

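With 1 library per mark and cell type, replicate error is unknown, and counts under about 20 reads, such as those of myoblast H3K27ac at Pgam2 and Pygm, give intervals several times wide. No paired analysis was possible because no result comes from a test and each group has 1 sample. Of 470 recomputed values for 80 results, 408 stayed within their counting interval or 1.5 times a count, 61 moved and 1 turned direction. At the 5′-most coding starts the H3K4me3 level of Eno3 was 1.23 times that of Eno1 in myoblasts, where it had been 0.488 times, and 2.18 times in myotubes, and their pair change in H3K27ac was 1.56. That pair change was 5.19 within 500 bp and 1.61 within 2 kb of the start. With Pfkm at the third coding start, an alternative chosen after seeing the data, its change over that of Pfkl was 34.4 in H3K4me3 and 15.6 in H3K27ac, and over that of Pfkp 58.7 and 12.8. Within 500 bp of the start the H3K4me3 level ratios in myoblasts were 0 for Pgam2 over Pgam1, 0.385 for Pfkm over Pfkl and 0.648 for Pfkm over Pfkp, and in myotubes 0.579 for Pygm over Pygb. Over the last of 3 equal parts of the body the H3K36me3 level ratios in myoblasts were 0.825 for Eno3 over Eno1, 1.27 for Pgam2 over Pgam1, 0.518 for Pfkm over Pfkl, 0.838 for Pfkm over Pfkp and 0.161 for Pygm over Pygb, and in myotubes 6.90 for Pgam2 over Pgam1, 0.929 for Pfkm over Pfkl, 4.02 for Pfkm over Pfkp, 1.02 for Pygm over Pygb and 18.9 for Pygm over Pygl. Of that part of Pgam1 only 44.3% can hold a unique read, and all of that of Pgam2. Counted per such position, an alternative chosen after seeing the data, Pgam2 over Pgam1 was 0.564 and 3.05, Pfkm over Pfkl 0.518 and 0.929, Pfkm over Pfkp 0.845 and 4.06 and Pygm over Pygb 0.175 and 1.11 in myoblasts and myotubes, and Pygm over Pygl 20 in myotubes. Members called lower in H3K4me3 were 2 with no read filter, where 14.2% of promoters were, and 2 at 1.5-fold, where 22.0% were. Those called lower after scaling to marked promoters were 1 in H3K4me2 (10.6% of promoters) and 1 in H3K27ac (12.4%), and in H3K4me2 5 after scaling by windows outside peaks (71.0%). At 1.5-fold, body H3K36me3 was called higher at 4 members and lower at 2, where 19.1% and 17.8% of bodies were. Myotube H3K4me1 peaks were at 1 member with a score of at least 100 and at 0 with an overlap of at least 500 bp. Exchanging the lists gave 7 members with H3K27ac and 0 with H3K27me3 in myoblasts. H3K36me3 peaks fell to 0 in myoblasts by overlap and to 0 in myotubes by score. Beyond the start, body, filter and scaling settings named here, the cause of these moves was not tested.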

Other observations

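Windows of 1 kb more than 2 kb from the gene's own start also held differences between the cell types, and some are given as values. Those given first are rises, picked by their values, and windows that fell are given after them. Past the end of Pgam2, 2.59 kb from its start, in a window that takes in the end of Dbnl, H3K4me1 went from 10 reads in myoblasts to 43 in myotubes and H3K27ac from 1 to 20. Inside Pygm, 13.5 kb from its start and 1.44 kb from a start of Rasgrp2, H3K4me1 went from 3 to 23 reads. In Pfkp, 29.5 kb from the start, H3K27ac went from 13 to 68 reads, levels of 17.9 and 36.8. Upstream of Eno1, at 7.48 kb, H3K27ac went from 1 to 24 reads, levels of 1.38 and 13.0, and H3K4me1 from 11 to 33, levels of 4.34 and 13.5.

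An internal coding start of Eno1, 6765 bp into the gene, held 6 H3K4me3 reads in myoblasts and 25 in myotubes, a ratio of 3.50 (1.40 to 10.4), while its main promoter had a ratio of 0.993.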
